A study of Mus musculus with 9 samples.

Results

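A set of 10 genes of the small leucine-rich proteoglycan and hyaluronan systems were followed in RNA from 9 clones of MPC, primary cells grown from pancreatic tumors of WTg mice. The members were taken by symbol, and all 10 were found among the 18049 genes of the deposited table. They were the proteoglycans Dcn, Bgn, Lum, Fmod, Ogn and Aspn, the hyaluronan-binding proteoglycan Vcan, the hyaluronan synthases Has1 and Has2, and the hyaluronan receptor Cd44. WTg mice carried the transgenes EL1-Luc/EL1-TAg, in which an elastase promoter of the acinar cell drives luciferase and the SV40 large T antigen, together with Mettl3 under the ubiquitous CAG promoter. Colonies were picked with cloning cylinders after 2 passages of the minced tumor, so each sample is the RNA of 1 clone of cultured cells and not of a tumor. By the labels, all clones belonged to 1 condition and carried the same transgenes, although Mettl3 was at 2184 normalized counts in 1 clone and at 468 to 621 in the other 8, and other cells were not analysed here. A protocol field of the labels names NMS-P937 at 80 nM for 24 h, whereas the treatment field says none, and the clones were taken as untreated. The sex, age and tumor of origin of the mice are not given in the labels.

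Small leucine-rich proteoglycans are short secreted proteins with a core of leucine-rich repeats and, in most of them, glycosaminoglycan side chains. They bind fibrillar collagen, set the width and spacing of its fibrils, and hold growth factors such as TGF-beta in the matrix. Decorin and biglycan carry chondroitin or dermatan sulfate chains, while lumican and fibromodulin carry keratan sulfate. Hyaluronan is a long, unsulfated sugar polymer that Has enzymes extrude through the plasma membrane. Versican binds it in the matrix and CD44 binds it on the cell surface. In the pancreas these molecules are known as products of stellate cells and fibroblasts, and both decorin and hyaluronan accumulate in the stroma of pancreatic tumors. Cd44 is also made by leukocytes.

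Several of these genes lie next to each other, and the pairs described below include neighbours. Positions and sequences are those of RefSeq on GRCm38.p6, the build family named in the submitters' processing notes. Dcn (chr10:97479500-97518163) and Lum (chr10:97565501-97572703) had 47338 bases between them and no protein-coding gene in between. On chromosome 13, Ecm2, Aspn (chr13:49544443-49567565), Omd and Ogn (chr13:49608015-49624501) followed each other without another protein-coding gene. On chromosome 1, Fmod (chr1:134037254-134048280) was the neighbour of Prelp at a distance of 107152 bases. Bgn (chrX:73483601-73495936) lay on the X chromosome. Vcan lay apart from the Aspn cluster on chromosome 13 (chr13:89655309-89743027), and the remaining members were on chromosome 2 (Cd44), chromosome 15 (Has2) and chromosome 17 (Has1).

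The upstream sequences of Aspn and Ogn are shown because this pair of 1 gene cluster had the highest Pearson's r of all member pairs, and that of Bgn because it was the member that passed the test against the marker ratio described below. Each is the 250 bases before the annotated start, 5′ to 3′ on the strand of the gene. Capitals mark TATAAA or its reverse complement TTTATA in Aspn and Ogn, and the GC box GGGCGG or its reverse complement CCGCCC in Bgn.
Aspn, chr13:49544193-49544442, strand +: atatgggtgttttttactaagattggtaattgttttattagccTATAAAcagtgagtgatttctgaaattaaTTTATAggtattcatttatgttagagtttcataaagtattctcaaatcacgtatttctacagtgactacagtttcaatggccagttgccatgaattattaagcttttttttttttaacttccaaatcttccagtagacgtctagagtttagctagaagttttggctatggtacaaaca
Ogn, chr13:49607765-49608014, strand +: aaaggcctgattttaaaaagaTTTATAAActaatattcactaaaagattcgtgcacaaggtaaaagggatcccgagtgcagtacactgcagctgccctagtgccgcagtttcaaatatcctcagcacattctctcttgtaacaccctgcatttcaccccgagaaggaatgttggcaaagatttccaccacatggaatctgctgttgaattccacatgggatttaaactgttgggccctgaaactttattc
Bgn, chrX:73483351-73483600, strand +: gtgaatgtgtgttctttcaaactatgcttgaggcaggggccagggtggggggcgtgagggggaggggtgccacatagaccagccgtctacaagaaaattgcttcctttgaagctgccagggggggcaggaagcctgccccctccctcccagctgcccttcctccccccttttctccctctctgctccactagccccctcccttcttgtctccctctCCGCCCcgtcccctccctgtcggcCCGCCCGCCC
TATAAA was found on either strand in 12.4% of the 32851 promoters of the reference in windows of the same length, and GGGCGG in 32.7%. The Aspn window held the first motif 2 times, starting 207 and 178 bases before the start. In the Ogn window both strands matched in overlap, at 229 and 227 bases. The Bgn window held GC boxes at 34, 10 and 6 bases, the last pair in overlap, and the Vcan window held 2. The window of Fmod had neither of these motifs, nor had those of Cd44 and Has1. The AP-1 motif TGANTCA, present in 6.75% of all promoters on either strand, was absent from the windows of all 7 members with an entry. CpG dinucleotides numbered 2 in Aspn, 4 in Ogn, 2 in Fmod, 7 in Bgn and 10 in Vcan, against a median of 6. These matches are letters in a window and were not tested as binding sites. Dcn, Lum and Has2 had no entry in the table of promoters.

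Each library held between 12198036 and 20453888 reads on genes, with a median of 18082572. The values are normalized counts, that is read counts scaled by 1 factor per library, and a gene was taken as detected above a floor of 3 reads, which were worth 3.79 to 6.56 of them. Intervals and this floor cover counting error only. The table headers carry 3 prefixes whose meaning is not stated: MET_EL (1 clone), Whe10 (4 clones) and Whe3 (4 clones). Xist was at 29664 to 32912 normalized counts in the Whe10 clones and at most 8.39 elsewhere. The Y-linked gene Ddx3y had no read in the Whe10 clones. It was at 2376 to 2720 normalized counts in the Whe3 clones and at 2444 in the MET_EL clone. By these genes the Whe10 clones were female and the others male, so prefix, sex and mouse of origin cannot be told apart between Whe10 and Whe3. The MET_EL clone was the clone with the high Mettl3 and had the lowest depth. Cells were labelled fibroblasts. All 14 fibroblast markers, members left out, were above the floor in every clone with 1.54% to 4.33% of the reads, but so were all 16 macrophage markers, including Lyz2, Csf1r and C1qa, with 2.35% to 3.67%. Epcam had no read in any clone. The summed macrophage markers divided by the summed fibroblast markers gave a ratio between 0.542 in Whe3_12A and 2.29 in Whe10_7A. In bulk RNA, fewer cells of a type and less RNA per cell cannot be told apart. The labels name independent colonies, but not the mouse of each. By sex, the Whe10 clones came from other mice than the rest, and the number of mice is not given. All p-values therefore measure the spread between these clones.

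The members varied far more between clones than genes usually did. The median of their SD of log2(normalized counts + 1) was 1.48. Over the 14705 genes whose mean reached 10 normalized counts, it was 0.25. All 10 members passed that filter. Lum passed it only through the Whe10 clones, with means of 28.1 there and 4.12 in Whe3, and 8.75 in the MET_EL clone. Has1, with a mean of 17.0 and a median of 7.76, passed through its higher clones. The spread of Lum and Has1 thus rests in part on the clones that carried them through the filter. Among these 14705 genes the SD of Aspn was at percentile 99.7 and that of Bgn at 75.9, with the other members but Cd44 between them. Cd44, at percentile 41.6, was the exception. For every member the SD over clones exceeded the counting error, by 4.14 times for Has1 and by 62.4 times for Bgn. Levels are not ranked between genes, because transcript lengths were not used here.

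**Figure D1:**
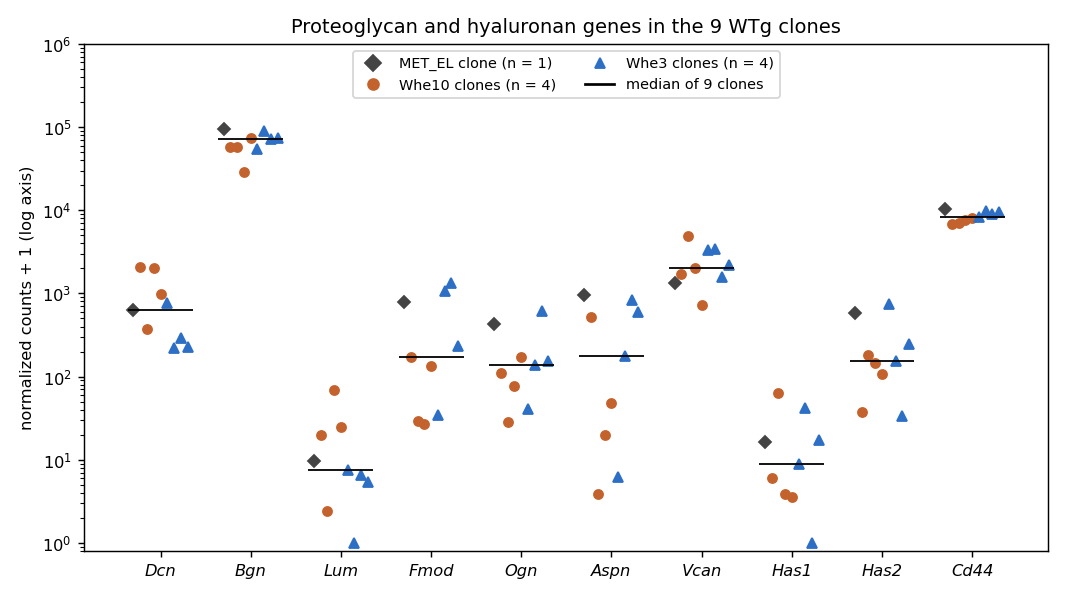
Normalized counts + 1 on a log axis for the 10 members, with 1 symbol per clone (diamond, MET_EL; circles, Whe10; triangles, Whe3) and a line at the median of the 9 clones. The points of Cd44 lie between 6931 and 10266 normalized counts, whereas those of Aspn run from 2.85 to 961.

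Biglycan and decorin are close relatives in sequence within the family. Bgn was high in all clones, at 67412 ± 19986 normalized counts (SD, n = 9). It measured 93965 in the MET_EL clone, 58413, 57769, 28804 and 74004 in Whe10_10A, 11A, 7A and 8A, and 55227, 90865, 72940 and 74716 in Whe3_11A, 12A, 5A and 7A. Whe10_7A was the low clone, and the highest level was 3.26 times the lowest. Bgn took between 0.113% and 0.352% of the reads on genes. Dcn behaved otherwise and varied 9.52-fold, with 842 ± 732 normalized counts (SD, n = 9). It measured 624 in the MET_EL clone, 2066, 377, 2032 and 990 in Whe10_10A, 11A, 7A and 8A, and 762, 217, 290 and 224 in Whe3_11A, 12A, 5A and 7A. The highest 3 values were those of Whe10 clones, but Whe10_11A lay below Whe3_11A, so that the prefixes overlapped.

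Lumican, the neighbour of decorin on the chromosome and a regulator of fibril assembly in the cornea, was close to the detection limit. Lum measured 8.75 normalized counts in the MET_EL clone, 19.1, 1.42, 68.0 and 24.0 in Whe10_10A, 11A, 7A and 8A, and 6.47, 0, 5.60 and 4.43 in Whe3_11A, 12A, 5A and 7A. It was above the floor in 6 of 9 clones. No read was found among the 16526371 of Whe3_12A, which allows up to 4.68 normalized counts there, and the highest clone was at least 14.5-fold higher than that limit. Whe10_7A, with 47 reads, was highest for Lum and lowest for Bgn.

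Fibromodulin, asporin and osteoglycin also varied widely. Fmod, a collagen-binding relative of lumican, was at 426 ± 508 normalized counts (SD, n = 9) and varied 51.8-fold. It measured 786 in the MET_EL clone, 171, 28.5, 26.0 and 131 in Whe10_10A, 11A, 7A and 8A, and 33.6, 1079, 1349 and 232 in Whe3_11A, 12A, 5A and 7A. High Fmod was thus found in the MET_EL clone and in Whe3_12A and Whe3_5A, whereas Whe3_11A was as low as the low Whe10 clones.

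Aspn, which lacks the chondroitin sulfate attachment site of decorin and biglycan and carries a run of aspartates, measured 961 in the MET_EL clone, 526, 2.85, 18.8 and 46.7 in Whe10_10A, 11A, 7A and 8A, and 5.17, 178, 825 and 601 in Whe3_11A, 12A, 5A and 7A. Its mean was 352 ± 381 normalized counts (SD, n = 9). Within both prefixes, clones near the floor stood beside clones far above it. The lowest value rested on 2 reads and the highest on 439, a ratio of 337 with an exact 95% counting interval of 92.8 to 2794. Ogn, also known as mimecan, measured 422 in the MET_EL clone, 111, 27.1, 75.2 and 173 in Whe10_10A, 11A, 7A and 8A, and 40.1, 136, 607 and 152 in Whe3_11A, 12A, 5A and 7A. The lowest 2 clones, Whe10_11A and Whe3_11A, were also the lowest 2 for Aspn.

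On the hyaluronan side, Cd44 was the most even member and the synthases the least even. Cd44 was at 8503 ± 1211 normalized counts (SD, n = 9), a coefficient of variation of 14.2%. It measured 10266 in the MET_EL clone, 6931, 7052, 7608 and 8008 in Whe10_10A, 11A, 7A and 8A, and 8285, 9668, 9091 and 9621 in Whe3_11A, 12A, 5A and 7A. All Whe3 clones and the MET_EL clone lay above all Whe10 clones. How many other genes split in this way was not counted. Vcan was at 2354 ± 1295 normalized counts (SD, n = 9) and measured 1324 in the MET_EL clone, 1696, 4906, 2008 and 732 in Whe10_10A, 11A, 7A and 8A, and 3324, 3404, 1591 and 2198 in Whe3_11A, 12A, 5A and 7A. Its highest and lowest clones were both Whe10 clones, 6.70-fold apart.

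Has2, the main synthase of connective tissue, measured 578 in the MET_EL clone, 36.9, 179, 145 and 107 in Whe10_10A, 11A, 7A and 8A, and 744, 151, 32.2 and 248 in Whe3_11A, 12A, 5A and 7A. It varied 23.1-fold, and its lowest clones were Whe3_5A and Whe10_10A. Has1 measured 15.3 in the MET_EL clone, 5.09, 62.7, 2.89 and 2.52 in Whe10_10A, 11A, 7A and 8A, and 7.76, 40.6, 0 and 16.2 in Whe3_11A, 12A, 5A and 7A. It was above the floor in 6 of 9 clones, and the value of Whe10_11A was at least 14.9-fold higher than the limit set by the absence of reads in Whe3_5A. Has3, the remaining synthase, had at most 3 reads in every clone and was therefore not above the floor at this depth.

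Whether members varied together was asked over all 45 pairs, with Pearson's r on log2(normalized counts + 1) and exact two-sided permutation tests over the 362880 orders of the 9 clones. The coefficients ran from -0.67 to 0.87, 9 pairs had an unadjusted p under 0.05, and 4 had r over 0.8. These 4 were all pairs of small leucine-rich proteoglycans. Of the rest, Bgn had 3 relations with an unadjusted exact permutation p under 0.05, with Fmod (r = 0.77, p = 0.0049), Cd44 (r = 0.66, p = 0.040) and Dcn (r = -0.64, p = 0.049), which centred within prefixes had r = 0.63, 0.29 and -0.57 (exact permutation p = 0.064, 0.53 and 0.23). Each relation was also centred within the prefixes, where the MET_EL clone has no weight and 576 orders are possible. Relations with Dcn, Vcan, Cd44, Aspn and Fmod were also read from limma fits of all genes on that member. These used Benjamini-Hochberg adjustment over all genes tested. No such fit was run on Bgn, Lum, Ogn, Has1 or Has2, so pairs among them have no adjusted p. In these fits, from 284 (Vcan) to 3686 (Cd44) of 14704 genes had an unadjusted limma p under 0.05. The share of 9 in 45 pairs lay within that range, and pairs of other genes were not counted.

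Dcn and Lum formed 1 of these pairs. The clones with the highest Dcn had the highest Lum, with r = 0.85 and Spearman's rho = 0.88 (exact permutation p = 0.0029 and 0.0031, n = 9). Lum had 15, 47 and 19 reads in Whe10_10A, 7A and 8A and at most 5 in every other clone. Its order among those other clones therefore rests on values around the floor. When the 2 clones with the most extreme Dcn were left out, r was 0.76, and centred within prefixes it was 0.78 (exact permutation p = 0.064). Of 14704 genes fitted on Dcn with limma, 0 passed the adjusted threshold of 0.05 (0.0%), 2141 had an unadjusted p under 0.05, and limma's voom on recovered reads also called 0. The slope of Lum was 1.24 ± 0.28 (SE) log2 units per log2 unit of Dcn, with an adjusted p of 0.22. The genes most like Dcn, by the smallest p, were Serpinb2, an inhibitor of plasminogen activators, Scarb2, a lysosomal membrane protein, and Itga3, a laminin-binding integrin subunit. Those with the most opposite pattern were the fibroblast growth factor gene Fgf7 together with Bahcc1 and Tcf7l1. Serpinb2 had a slope of 2.12 and Fgf7 of -0.61, and these 6 genes shared an adjusted p of 0.18.

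Aspn, Ogn and Fmod formed the other 3 pairs. Aspn and Ogn, which have Omd between them on chromosome 13, had r = 0.87 and rho = 0.87 (exact permutation p = 0.0020 and 0.0045, n = 9). Aspn and Fmod, which lie on different chromosomes, had r = 0.85 and rho = 0.82 (exact permutation p = 0.0068 and 0.011, n = 9). Fmod and Ogn had r = 0.86 and rho = 0.78 (exact permutation p = 0.0036 and 0.017, n = 9). Centred within prefixes these coefficients were 0.81, 0.81 and 0.83 (exact permutation p = 0.038, 0.024 and 0.040). Without the 2 farthest clones they were 0.66, 0.75 and 0.84. In the fits over all genes, the adjusted p was 0.27 for Ogn on Aspn, 0.28 for Fmod on Aspn and 0.17 for Ogn on Fmod, so that no pair passed once all genes were counted.

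Other proteoglycans beside these members were read in the same way. Ecm2, the gene before Aspn, ranged from 7.12 to 93.7 normalized counts, with r = 0.86 and rho = 0.80 against Aspn (exact permutation p = 0.0055 and 0.014, n = 9). Its coefficient centred within prefixes was 0.86, and the adjusted p over all genes was 0.32. Prelp, the neighbour of Fmod and a basement membrane anchor, ranged from 255 normalized counts in Whe10_7A to 11528 in Whe3_5A. It had r = 0.84 and rho = 0.73 against Fmod (exact permutation p = 0.0087 and 0.031, n = 9), and an adjusted p of 0.19. Omd, between Aspn and Ogn, was above the floor in 3 of 9 clones and did not enter the fits. Of the 11 genes listed as other small leucine-rich proteoglycans, 9 were in the table and 6 passed the filter. Chad had no read. Tsku was even at 890 ± 87.3 normalized counts (SD, n = 9), and Podn ranged from 11.6 to 197. Podn had slopes of 0.60 on Fmod and 0.41 on Aspn (adjusted p = 0.14 and 0.29, limma). These adjusted p values were below that of Prelp on Fmod and that of Ecm2 on Aspn.

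**Figure D2:**
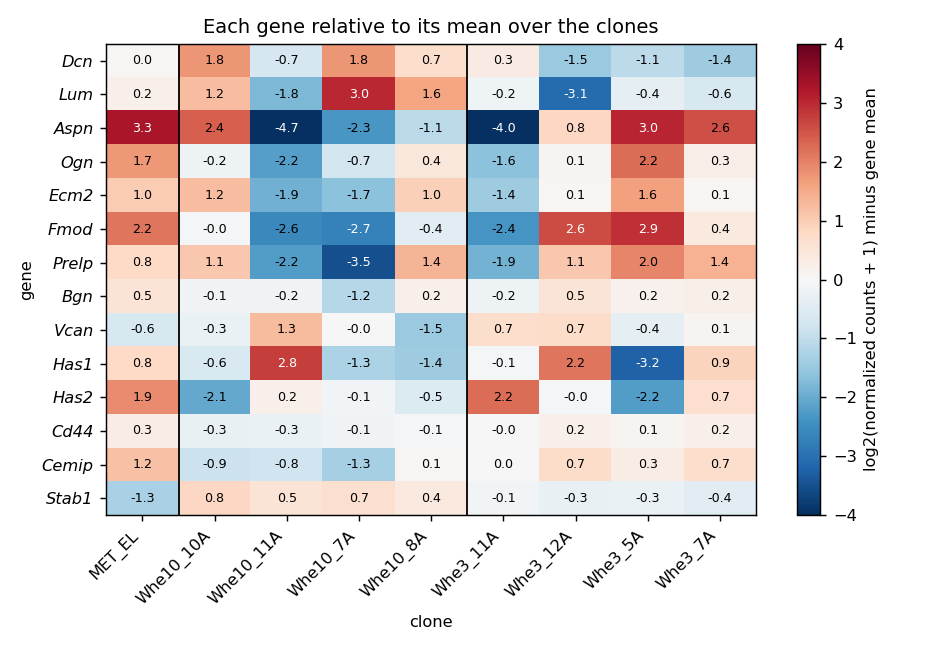
Log2(normalized counts + 1) of each gene minus its mean over the 9 clones, as a colour scale with the value written in each cell; lines separate the MET_EL, Whe10 and Whe3 clones. Aspn, Ogn, Ecm2, Fmod and Prelp are each below their mean in Whe10_11A, Whe10_7A and Whe3_11A and above it in Whe3_5A and the MET_EL clone, while Dcn and Lum follow another order.

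The fits on Aspn and Fmod were added after the members' values had been seen. Col6a1, which encodes a chain of the microfibrillar collagen VI, was the 1 gene called among 14704 in the fit on Aspn (0.0068%, with 748 at an unadjusted p under 0.05). It rose with Aspn by 0.50 ± 0.05 (SE) log2 units per log2 unit (adjusted p = 0.031, limma). Its partner chain Col6a2 came next with a slope of 0.69 and an adjusted p of 0.12. Col6a1 is also 1 of the 14 fibroblast markers, and the call was lost without the MET_EL clone and with prefix as a term. The other genes named by rule were Gstt1, with Tll1, a protease related to Bmp1, Hmga1 and Vegfc on the opposite side (adjusted p from 0.15 to 0.27). In the fit on Fmod, 0 of 14704 genes were called (0.0%, with 1689 at an unadjusted p under 0.05, and 0 by voom). Those nearest were Lama5, a laminin chain, Igfbp6 and Ttc28, and on the opposite side the Fc receptor gene Fcgr4, Bcl2a1b and Tll1, all at an adjusted p of 0.14.

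Has2 had no clear relation with Aspn, Fmod or Ogn over all clones, and negative coefficients within prefixes. Has2 against Aspn, Fmod and Ogn had r = -0.34, -0.28 and -0.32 over the 9 clones (exact permutation p = 0.35, 0.45 and 0.41, n = 9). Centred within prefixes r was -0.83, -0.88 and -0.86 (unadjusted exact permutation p = 0.023, 0.014 and 0.038, over the 8 clones of Whe10 and Whe3). The MET_EL clone was high for all 4 genes, and without it the uncentred values were -0.64, -0.54 and -0.66. In the fits over all genes with prefix as a term, no gene was called for Aspn or Fmod. Vcan was lower where Ogn was higher, with r = -0.67 and rho = -0.75 (exact permutation p = 0.048 and 0.025, n = 9), and r = -0.81 centred within prefixes (exact permutation p = 0.0035). Vcan and Has1 had r = 0.65 and rho = 0.75 (exact permutation p = 0.056 and 0.025, n = 9), and Whe10_11A was the highest clone for both. Lum and Has1, both low in reads, had r = -0.65 (exact permutation p = 0.059, n = 9). Centred within prefixes, their r was -0.80 (unadjusted exact permutation p = 0.026). Of 14704 genes fitted on Vcan, 0 were called (0.0%, with 284 at an unadjusted p under 0.05, and 0 by voom). The adjusted p of every member was 0.999. Lurap1l, Gprc5b and Nr2f1 were nearest to Vcan, and Rcan2, Scube3 and Tmem167b most opposite.

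**Figure D3:**
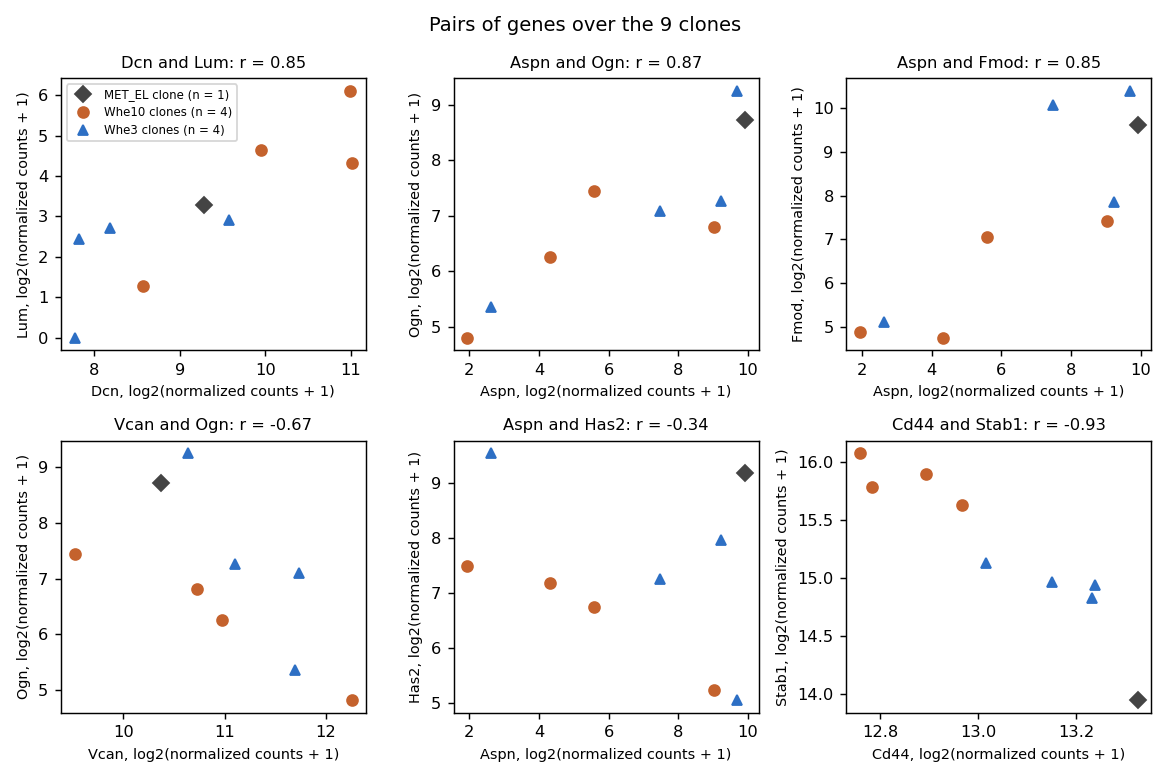
Log2(normalized counts + 1) of 6 pairs of genes, 1 symbol per clone (diamond, MET_EL; circles, Whe10; triangles, Whe3), with Pearson's r over the 9 clones above each panel. Dcn with Lum, Aspn with Ogn and Aspn with Fmod rise together, whereas Has2 is lower where Aspn is higher among the 8 Whe10 and Whe3 clones and the MET_EL clone is high for both.

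Relations of Cd44 with 2 other hyaluronan genes are given as a description. Cemip, a hyaluronan-depolymerizing protein, was at 24049 ± 12834 normalized counts (SD, n = 9) and highest in the MET_EL clone at 47367, as Cd44 was. Cemip had r = 0.925 and rho = 0.93 against Cd44 (exact permutation p = 0.00057 and 0.00075, n = 9), and r = 0.65 centred within prefixes (exact permutation p = 0.10). Cemip also rose with Bgn, at r = 0.87 (exact permutation p = 0.00053, n = 9). Centred within prefixes, that r was 0.87 (exact permutation p = 0.031). Stab1, a scavenger receptor of macrophages and sinusoidal endothelium, ranged from 15791 in the MET_EL clone to 68910 in Whe10_10A. It had r = -0.93 and rho = -0.97 against Cd44 (exact permutation p = 8.8e-05 and 0.00017, n = 9), and r = -0.79 centred within prefixes (exact permutation p = 0.038). Cemip and Stab1 were both partners chosen after their values were seen. In the limma fit on Cd44, 0 of 14704 genes were called (0.0%, with 3686 at an unadjusted p under 0.05, and 0 by voom). Cemip and Stab1 were at adjusted p values of 0.058 and 0.059, the smallest value in that fit being 0.058. Fmod was the member nearest to Cd44, at r = 0.73 (exact permutation p = 0.034, n = 9) and an adjusted p of 0.11. The genes named by rule were Lrrn4cl, Hhipl1 and Hoxb9, with Serpini1 and Bcl2a1b on the opposite side, all at an adjusted p of 0.058.

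The Whe3 and Whe10 clones were compared next. Prefix, sex and mouse of origin cannot be told apart in this comparison. No member passed: 0 of 10 were called by limma, and 0 by voom, against 29 of 14705 genes (0.197%, 17 higher and 12 lower in Whe3). Leaving out 1 clone gave 9 to 259 calls in all, with 259 without Whe3_5A, and called none of the members. The difference Whe3 minus Whe10 had a median of 0.45 log2 units over the members and -0.02 over all genes. The unadjusted limma p was under 0.05 for 2 of 10 members, Cd44 and Dcn, and for 2963 of 14705 genes, a similar share. Cd44 was at 9166 ± 643 normalized counts in Whe3 and 7400 ± 501 in Whe10 (SD, n = 4 each). The difference was 0.31 ± 0.08 (SE) log2 units with an adjusted p of 0.15, and the exact permutation p of 0.029 is the smallest that 4 against 4 clones can give. Cd44 was the only member whose groups did not overlap. The share of all genes without overlap was not counted, so this is not shown to be particular to Cd44. Dcn was at 373 ± 261 normalized counts in Whe3 and 1366 ± 827 in Whe10 (SD, n = 4 each), a difference of -1.79 ± 0.61 (SE) log2 units (adjusted p = 0.18; exact permutation p = 0.057). Fmod differed by 2.34 ± 1.19 (SE), Aspn by 2.04 ± 1.85 (SE) and Lum by -2.07 ± 1.07 (SE) log2 units, with adjusted p values of 0.30, 0.54 and 0.31. Lum entered this fit only through the Whe10 clones, where it was high. The other members had adjusted p values from 0.37 for Bgn to 0.98 for Has1.

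Among the genes of the pathway, 2 of the 50 that entered this fit were called. Adamts9, a protease that cleaves versican, was at 142, 147, 156 and 265 normalized counts in the Whe3 clones and at 24.6, 37.0, 39.4 and 51.7 in the Whe10 clones. It was higher in Whe3 by 2.18 ± 0.28 (SE) log2 units (adjusted p = 0.037, limma). The MET_EL clone, at 52.5, was near the Whe10 clones. Stab1 was lower in Whe3, at 32056 ± 2816 normalized counts against 59278 ± 7681 in Whe10 (SD, n = 4 each), by 0.88 ± 0.13 (SE) log2 units (adjusted p = 0.047, limma). Leaving out 1 clone at a time, Adamts9 kept the call in 2 of 8 fits (without Whe10_8A and without Whe3_5A) and otherwise had adjusted p values up to 0.12. Stab1 kept it in 1, without Whe3_5A, and otherwise had values up to 0.15. Voom gave Adamts9 an adjusted p of 0.05003. None of the 6 tested other small leucine-rich proteoglycans, of the 9 tested genes of hyaluronan synthesis and turnover, or of the 21 tested genes of chondroitin and dermatan sulfate assembly passed. Summed fibroblast markers were at 390035 to 632738 normalized counts in Whe10 and 543141 to 1116170 in Whe3, and macrophage markers at 779285 to 894898 and 605500 to 958013. Their part in these differences was not tested.

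**Figure D4:**
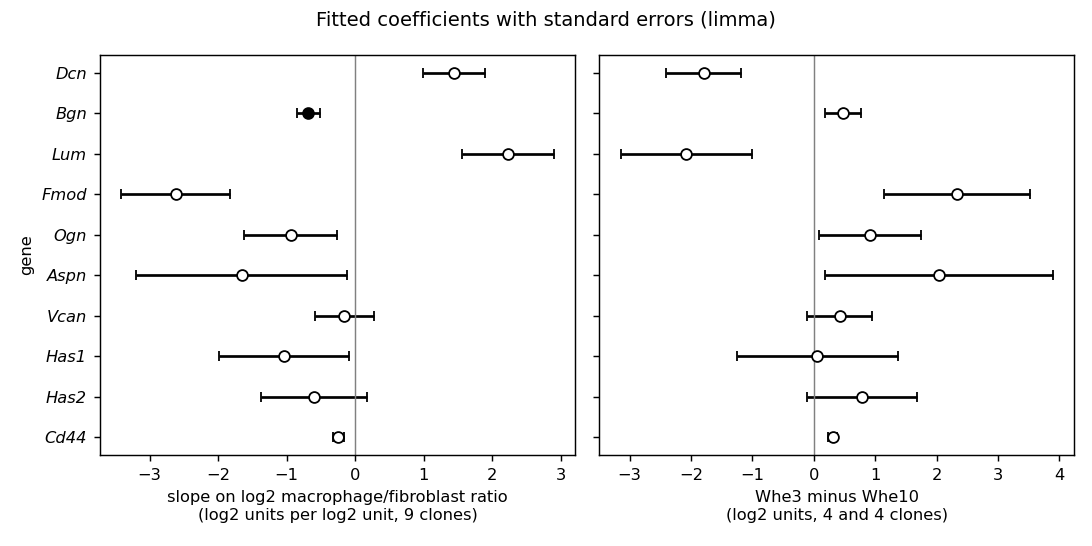
Fitted coefficients of the 10 members with standard errors from limma: left, slope on the log2 ratio of macrophage to fibroblast markers over 9 clones; right, difference of Whe3 minus Whe10 in log2 units over 4 and 4 clones. Filled points have an adjusted p under 0.05, which holds for Bgn on the left and for no member on the right.

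The members did not relate to the marker ratio in 1 direction. In the fit of all genes outside both marker lists, 2072 of 14675 were called (14.1%, 1136 with a positive and 936 with a negative slope), and of the members 1 of 10, Bgn. Bgn fell as the ratio rose, by 0.68 ± 0.16 (SE) log2 units per log2 unit (adjusted p = 0.029, limma), and r was -0.83 (exact permutation p = 0.0048, n = 9) and -0.72 centred within prefixes (exact permutation p = 0.031). The call was lost without the MET_EL clone (adjusted p = 0.059), with prefix as a term (0.31) and without the 2 clones of the most extreme ratio, Whe3_12A and Whe10_7A (0.28). Fmod had a slope of -2.62 ± 0.80 (SE) and Cd44 of -0.25 ± 0.08 (SE), whereas Lum had 2.22 ± 0.67 (SE) and Dcn 1.44 ± 0.46 (SE). Their adjusted p values of 0.056, 0.065, 0.054 and 0.062 lay just over the threshold, and voom on recovered reads called Lum (0.031) and Fmod (0.048). Voom called 3 of 10 members in all, against 2002 of 14675 genes (13.6%). The unadjusted limma p was under 0.05 for 5 of 10 members and for 4901 of 14675 genes. For Lum, rho against the ratio was 0.48 (exact permutation p = 0.19, n = 9), and r without the 2 farthest clones was 0.22. Dcn and Lum thus had slopes of the opposite sign to Bgn and Fmod. Ogn, Aspn, Vcan, Has1 and Has2 had adjusted p values from 0.36 to 0.82. The median slope was -0.64 over the members and 0.02 over all genes. Of all 14675 genes, 0 were called with prefix as a term and 0 without the 2 farthest clones.

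Of the 50 pathway genes outside the members, 7 passed in this fit, a share close to the 14.1% of all genes. Those that fell with a rising ratio were Cemip, the versican- and aggrecan-cleaving proteases Adamts1 and Adamts5, the intracellular hyaluronan-binding protein gene Hmmr, and the chondroitin synthesis genes Chsy1 and Csgalnact1. Xylt2, a xylosyltransferase that starts the glycosaminoglycan chain, rose by 0.37 ± 0.09 (SE) log2 units per log2 unit (adjusted p = 0.031, limma). Adamts5 had a slope of -1.23 ± 0.26 (SE) with an adjusted p of 0.019. Csgalnact1 had the steepest of these slopes, -1.73 ± 0.44 (SE), with an adjusted p of 0.032. All 7 lost the call with prefix as a term. The genes with the highest mean counts in each list, not corrected for transcript length, were Cemip, Hexa and Gusb for hyaluronan turnover, Stab1, Hmmr and Layn for hyaluronan binding, Xylt2, Chpf2 and Chpf for chain assembly, and Timp3, Bmp1 and Adamts5 for proteases and their inhibitor. Chpf2 (3859 ± 322 normalized counts), Gusb (11356 ± 833) and Hexa (17615 ± 2458; SD, n = 9 for each) were among the even genes, and Timp3, which inhibits such proteases, was uneven at 37764 ± 23977. Acan, the cartilage proteoglycan that also binds hyaluronan, had no read in any clone. The genes nearest to the ratio were Gng2, Dhdh and Grcc10 on the positive and Antxr1, Arpin and Ktn1 on the negative side, all at an adjusted p of 0.0084.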

How the data were processed

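Poly(A) RNA of 9 WTg MPC clones was sequenced from stranded mRNA libraries. The submitters' processing notes name FastQC 0.11.9, STAR 2.7.10, RSEM 1.3.3 and GRCm38, without roles. The values deposited by the authors are log2 values for 18049 genes, equal to log2 of a scaled read count plus 4. Normalized counts were obtained by undoing both steps, and recovered reads were whole (within 0.1 read) for 100% of values under 1000 reads. The table also held 6 columns of other series, which were used in no step and not analysed here. Columns could be tied to the group but not to single sample titles. Of the identifiers, 18033 matched a gene name, and RefSeq sequences (GRCm38.p6) matched 7 of 10 members.

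Relations and the Whe3 to Whe10 difference were fitted with limma 3.58.1 in R 4.3.3 (lmFit, eBayes with trend) on log2(normalized counts + 1) for genes whose mean reached 10 normalized counts, called at a Benjamini-Hochberg adjusted p under 0.05. A fold on this scale understates the change of low genes. Fits were also run on simulated data, whose outcome is not given here. The simulated spread was capped below that of the most variable genes, and clones were drawn independently. Those runs therefore do not represent most of the members. Exact permutation tests, Wilson and exact 95% intervals and figures used Python 3.11.15 (numpy 2.4.6, pandas 2.3.3, scipy 1.17.1, matplotlib 3.10.9). The members, gene lists and tests were chosen with earlier results of these data known. Named genes were all members, the 3 highest genes of each list, list genes that passed, and for each fit in each direction the 3 of lowest p whose mean reached 50 normalized counts, with over 3 reads in every clone, gene models left out. A gene that this rule names is not reported here.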

Additional observations from a re-analysis of the deposited data

Results flagged for a closer look

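Single clones stood apart for 4 members in Dixon's test of the gap to the next clone, applied to 30 groups (each member over the 9 clones, the 4 Whe10 clones and the 4 Whe3 clones). Chance flags about 1 in 20 groups of normally distributed values, or 1.5 of 30, and these counts are skewed. Lum in Whe10_7A was far above the other 8 clones, with 68.0 normalized counts against 24.0 in the next clone, a gap of 0.647 of the range. Dcn in Whe3_11A was far above the other Whe3 clones, with 762 against 290 normalized counts and a gap of 0.867 of the range. Aspn in Whe10_10A, at 526 against 46.7 normalized counts, had a gap of 0.916 of the range of the Whe10 clones. Has1 in Whe10_11A, at 62.7 against 5.09 normalized counts, had a gap of 0.957 of that range, and rested on 44 reads. On the log2(normalized counts + 1) scale, chosen after the values were seen, the same gaps were 0.24 for Lum, 0.77 for Dcn, 0.49 for Aspn and 0.81 for Has1, none of them over the critical value. On that scale 2 other gaps exceeded it, the low Bgn of Whe10_7A among the 9 clones (0.551) and the absence of Lum reads in Whe3_12A among the Whe3 clones (0.842).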

How the results depend on the processing

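No paired analysis was possible because the columns carry no replicate number that matches a sample title. The order of the members per kilobase was not run, since transcript lengths were not used here. Member levels kept within 1 SD of their mean under each scaling and each clone left out. Leaving out 1 of 9 clones cannot move a mean that far. The upper quartile factors were only 0.986 to 1.019, so this check says little about how firm the levels are. The count of genes called between Whe3 and Whe10 (29) was 9 to 259 with 1 clone left out and 22 to 36 under the other settings. On the marker ratio, the count of 2072 became 1279 without the MET_EL clone (1149 genes shared), and 0 with prefix as a term or without the 2 farthest clones. The 1 call on Aspn became 0 without a mean-variance trend, without the MET_EL clone, with prefix as a term and without the 2 farthest clones, and the fit on Vcan called 1 gene with prefix as a term. The fits on Dcn, Cd44 and Fmod called 0 under every setting run.

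Signs reversed only for coefficients that were not called. For Whe3 minus Whe10, Has1 (0.06) was -0.57 with a pseudocount of 0.1, -0.0082 by voom, and -0.10, -0.32, -0.37, -0.68 and -0.26 without Whe10_10A, Whe10_7A, Whe10_8A, Whe3_12A and Whe3_7A (range over all clones left out -0.68 to 1.11), and Vcan (0.42) was -0.028 without Whe10_8A (range -0.028 to 0.89). On the marker ratio, Aspn was 0.28 and Has2 0.50 with prefix as a term, and Vcan was 0.38 and Has1 0.41 without the 2 farthest clones. Lum passed there with a pseudocount of 0.1, by voom and without the MET_EL clone, and Fmod with a filter at 50 normalized counts and by voom. The causes of these changes were not tested. Depth limits Lum and Has1, which had at most 3 reads in 3 of 9 clones each.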
